A study of Mus musculus with 14 samples.

Results

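In liver RNA of Snell dwarf mice and wild type mice, 10 genes of the cytosolic and mitochondrial heat shock protein family were followed: Hspa8, Hspa1b, Hsp90aa1, Hsp90ab1, Hsph1, Dnaja1, Hspd1, Hspe1, Hspa9 and Hspb1. Every probe set whose array annotation names 1 of these genes and no other was taken. This gave 11 probe sets of 9 genes, among the 12488 probe sets of the array; Hsp90ab1 had no such probe set. Hspa8, Hspa1b, Hsph1, Dnaja1, Hspe1, Hspa9 and Hspb1 had 1 probe set each, and Hsp90aa1 and Hspd1 had 2 each, which were kept apart because probe sets of a gene can read different stretches of its RNA. After a filter on low signals 10 of the 11 were tested, which covered 8 genes; Hspb1 was too dim.

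The 14 arrays held liver RNA of 1 mouse each: 3 dwarf and 3 wild type mice of 22 months, and 4 dwarf and 4 wild type mice of 6 months. Snell dwarf mice are Pit-1 (Pou1f1) mutants. Pituitary cells need this factor to make growth hormone, prolactin and thyrotropin, so dwarf livers are short of signals of growth hormone and thyroid hormone from early life on. The mutation is in every cell of the animal and the liver was taken whole, so the groups compare whole animals. The labels give neither the state of the allele nor sex, strain background or a batch.

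Heat shock proteins are molecular chaperones. Hsp70 proteins bind unfolded stretches of other proteins in cycles of ATP binding and breakdown, J-domain proteins such as Dnaja1 bring them clients and speed up that breakdown, and nucleotide exchange factors such as Hsph1 reset them. Hsp90 proteins finish the folding of kinases and steroid receptors, and the Hspd1 and Hspe1 proteins form a closed chamber in mitochondria in which imported proteins fold. Heat shock factor 1 raises transcription of the stress-inducible members when unfolded proteins accumulate, by binding heat shock elements in their promoters. These elements are alternating GAA and TTC units.

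RefSeq promoter windows of the mouse assembly GRCm38.p6, from 250 bases before to 50 bases after an annotated start of transcription, are shown for the members on which the results turn and for the mitochondrial chamber. Windows were found for 6 of the genes, 10 windows in all. Each was searched for 2 neighbouring units (GAANNTTC or TTCNNGAA, each its own reverse complement, so both strands are covered) and for 3 alternating units spaced in the same way, in which the 2-unit matches overlap. Capitals mark the matches, positions count from the start of transcription, and each sequence reads 5′ to 3′ on the strand of its gene. The Hspa1b window lies at chr17:34959189-34959488 on the minus strand and the Dnaja1 window at chr4:40722218-40722517 on the plus strand. The Hspe1 window lies at chr1:55087898-55088197 on the plus strand and the Hsph1 window at chr5:149636287-149636586 on the minus strand.
Hspa1b: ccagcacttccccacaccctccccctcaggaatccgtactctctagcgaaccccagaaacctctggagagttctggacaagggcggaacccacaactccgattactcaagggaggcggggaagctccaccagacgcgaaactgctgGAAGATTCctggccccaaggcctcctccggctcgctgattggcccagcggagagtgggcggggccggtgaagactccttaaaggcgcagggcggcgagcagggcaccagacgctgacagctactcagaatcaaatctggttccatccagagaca
Dnaja1: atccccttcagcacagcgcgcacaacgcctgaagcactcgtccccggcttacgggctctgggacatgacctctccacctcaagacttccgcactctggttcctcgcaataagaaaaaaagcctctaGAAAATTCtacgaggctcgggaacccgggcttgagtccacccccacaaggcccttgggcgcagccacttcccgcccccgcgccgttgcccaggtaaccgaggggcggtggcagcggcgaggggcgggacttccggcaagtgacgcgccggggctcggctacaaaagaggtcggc
Hspe1: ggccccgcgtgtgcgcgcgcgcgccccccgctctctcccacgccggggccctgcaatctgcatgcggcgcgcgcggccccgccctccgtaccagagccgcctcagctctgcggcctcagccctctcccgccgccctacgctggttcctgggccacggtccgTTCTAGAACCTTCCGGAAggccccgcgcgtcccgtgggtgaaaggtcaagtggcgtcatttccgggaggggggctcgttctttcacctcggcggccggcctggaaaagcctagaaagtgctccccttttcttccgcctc
Hsph1: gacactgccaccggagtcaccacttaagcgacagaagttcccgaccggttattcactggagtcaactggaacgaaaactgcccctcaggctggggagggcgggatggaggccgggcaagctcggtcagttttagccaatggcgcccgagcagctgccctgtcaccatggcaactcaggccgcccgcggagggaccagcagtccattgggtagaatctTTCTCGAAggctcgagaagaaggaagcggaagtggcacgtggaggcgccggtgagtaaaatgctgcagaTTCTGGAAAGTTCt

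Hspa1b had 1 match of 2 units, from -104 to -97, and the Dnaja1 window shown had 1 from -124 to -117. The windows of the other annotated Dnaja1 starts, at chr4:40722672-40722971 and chr4:40722680-40722979, held no match. In Hspe1, 4 alternating units in a row ran from -89 to -72. Hspd1 is the head-to-head neighbour of Hspe1, and the same bases lay in the window of 1 of its 2 annotated starts, at chr1:55087883-55088182 on the minus strand, from -144 to -127. Hsph1 had 2 units from -33 to -26 and 3 units just after the start, from 37 to 49. Its other window, at chr5:149636266-149636565, overlaps the one shown. The same bases lie there from -54 to -47 and from 16 to 28. Hspb1 had separate matches of 2 units, from -117 to -110 and from -97 to -90. At least 1 window of each of the 6 genes held 2 units (7 of the 10 windows), against 15.1% of all 32851 windows. Matches of 3 units were found in 4 windows, those of Hspd1, Hspe1 and Hsph1, against 0.603% of all windows. Hspd1 and Hspe1 share a stretch, and the Hsph1 windows share another, so these windows are not independent. A match describes letters of the sequence and does not show that a factor is bound there in liver.

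**Figure D1:**
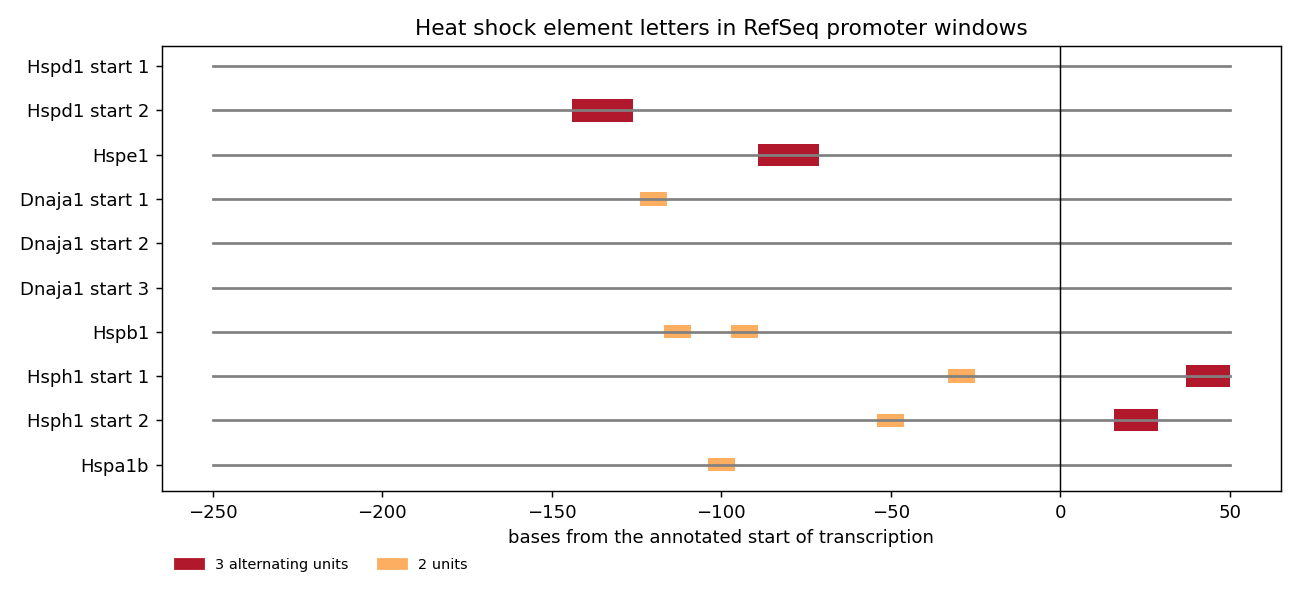
Matches to heat shock element letters in the promoter windows of the members. The horizontal axis is the distance in bases from the annotated start of transcription, each grey line is 1 RefSeq window of 300 bases, and coloured boxes are matches of 2 units (orange) or of 3 alternating units (red). Both the Hspe1 window and the second Hspd1 window hold a red box, which is the same stretch of DNA read from each gene.

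The values are array signals on a linear scale that the authors had scaled to nearly the same trimmed mean on every array (500.357 to 500.437). The labels of genotype were checked with Igf1, a liver gene that growth hormone drives. Its 2 probe sets were 4.23-fold and 15.1-fold lower in dwarf than in wild type livers at 22 months (limma, adjusted p = 4.97e-06 and 1.7e-06), and 3.48-fold and 15.5-fold lower at 6 months (adjusted p = 2.51e-06 and 1.36e-07). Hepatocyte markers (11 of 12 genes on the array, none at the floor on every array) summed to signals of 207566 to 239700 in dwarf and 191604 to 247688 in wild type livers at 22 months, and of 250972 to 345123 in dwarf and 191829 to 232290 in wild type livers at 6 months. At 6 months the sums of stellate cell markers (8 of 9 genes on the array) lay likewise higher in dwarf livers, at 8318.5 to 10874.3, than in wild type livers, at 6966 to 7860.2, and so were those of lymphocyte markers (10 of 12, Cd8a at the floor on every array), at 2815.8 to 3424.4 against 1869.1 to 2520.6. Endothelial markers (10 of 12) did the same at 6 months, at 4434.1 to 5780.3 in dwarf against 3655 to 4350.7 in wild type livers, while macrophage markers (10 of 12, Marco at the floor on every array) overlapped there. At 22 months the macrophage sums were 4579.3 to 5898.8 in dwarf and 6638.9 to 10415.3 in wild type livers. Of the cholangiocyte markers (4 of 6 on the array), Krt19, Krt7 and Epcam were at the floor on every array. The sums of that list were 156.8 to 236.9 in dwarf and 154.4 to 259.2 in wild type livers at 22 months. At 6 months they were 231.8 to 378.2 and 205.9 to 283.3. Red blood cell markers (4 of 9) summed to 10709.7 to 19084.3 in dwarf and 6524.5 to 17389.5 in wild type livers at 22 months. At 6 months they summed to 9088.9 to 15213.2 and 10886.7 to 19889.1. The ratio of 3′ to 5′ beta-actin control signals, which is higher when labelled RNA is shorter, was 1.25 to 1.57 in dwarf and 1.52 to 1.74 in wild type livers at 22 months, and 2.29 to 2.69 in dwarf and 1.16 to 2.38 in wild type livers at 6 months. Within the 6-month wild type group animal 88 stood apart, with the lowest actin ratio (1.16) and the highest signal of the 18S control (271.5, against 52.6 to 105 in the other 3). Old wild type animal 2 had a higher 18S signal still, 2020.9, against 204.3 and 359.3 in the others of its group. The part of these marker sums and array measures in the results below was not tested beyond the fits named there.

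The inducible Hsp70 gene Hspa1b was the member whose genotype difference turned with age at an adjusted p under 0.05. At 22 months its signal was 124.0, 176.4 and 119.7 in dwarf livers, against 223.7, 226.3 and 365.6 in wild type livers. At 6 months it was 262.8, 355.1, 324.2 and 304.0 in dwarf livers, against 204.6, 159.3, 221.0 and 172.2 in wild type livers. All 3 old dwarf livers thus lay below all 3 old wild type livers, and all 4 young dwarf livers lay above all 4 young wild type livers. Group means were 140.0 ± 31.6 in dwarf and 271.9 ± 81.2 in wild type livers at 22 months (SD, n = 3 each), and 311.5 ± 38.7 in dwarf and 189.3 ± 28.5 in wild type livers at 6 months (SD, n = 4 each). The test of the turn itself, the interaction of genotype and age in a limma fit of all 14 arrays, gave a log2 value of -1.66 ± 0.35 (SE; 95% interval -2.41 to -0.92; adjusted p = 0.024). The ratio of dwarf to wild type was thus 3.17-fold lower at 22 than at 6 months. Of all 7227 probe sets tested, 2.19% passed for the interaction and 0.65% passed in this direction. Hspa1b was the only 1 of the 10 member probe sets to do so. A change of sign as such was not particular to it. The genotype values of Hspa8, Hsph1 and the dimmer Hspd1 probe set also went from positive at 6 months to negative at 22 months. Those of Hspe1 and the brighter Hsp90aa1 probe set went the other way. None of these interactions passed.

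Taken age by age, Hspa1b rose in dwarf livers at 6 months by a log2 value of 0.72 ± 0.23 (1.65-fold; 95% interval 0.23 to 1.21), just past the threshold in limma (adjusted p = 0.0485). This call was not stable: it held under 4 of 26 other settings, whose adjusted p ran from 0.0309 to 0.132, and in each of the 26 the value stayed positive (0.53 to 0.80). At 22 months the difference was -0.94 ± 0.27 (95% interval -1.50 to -0.38) and did not pass (adjusted p = 0.075), although the groups did not overlap. It passed under 2 of 26 other settings (0.0327 with array weights and 0.047 without the intensity trend). With age Hspa1b fell in dwarf livers, by 2.25-fold (log2 -1.17 ± 0.25, adjusted p = 0.00722), while in wild type livers the value of 0.50 ± 0.25 did not pass (95% interval -0.03 to 1.02, adjusted p = 0.317) though the 3 old animals lay above the 4 young ones. Over the 4 groups the order of means was dwarf at 6 months, wild type at 22 months, wild type at 6 months and dwarf at 22 months, and the ranges of neighbours in that order overlapped except between the 2 wild type groups.

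The fall with age in dwarf livers kept its call under 24 of 26 other settings. It ended with the 3′ to 5′ ratio as a covariate (-1.15, adjusted p = 0.144) and with the 18S signal as one (-0.98, adjusted p = 0.0922). Here and below, the 3′ to 5′ covariate is the mean of the log2 ratios of the beta-actin and Gapdh controls. The interaction for Hspa1b kept its call under 21 of 25 settings. It ended with the 3′ to 5′ covariate (-1.65, adjusted p = 0.074), without old dwarf animal 3 (adjusted p = 0.0711) or 8 (0.0663), and without old wild type animal 24 (0.0785). The 3′ to 5′ ratio differs between the dwarf age groups without overlap for both controls (Gapdh 0.82 to 0.97 at 22 months, against 1.31 to 1.77 at 6 months). So does the 18S signal (241.6 to 542.6 at 22 months, against 59.8 to 148.5 at 6 months). Within dwarf livers the part of either cannot be told apart from age. Because whole liver was used, less RNA per cell and fewer cells of a type cannot be told apart, for Hspa1b and for every gene below.

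Hspa1b has a near-identical neighbour, Hspa1a, which codes for almost the same inducible Hsp70 protein. Their promoter windows are identical at 296 of 300 bases and hold the same heat shock element letters. The probe set annotated to Hspa1a was too dim to be tested, with 1 of 14 arrays above the filter. It read 84.7, 112.0 and 175.4 in dwarf and 138.7, 57.5 and 162.1 in wild type livers at 22 months, and 66.0, 78.6, 157.9 and 194.8 in dwarf and 90.3, 69.1, 152.3 and 135.0 in wild type livers at 6 months. The groups overlapped at both ages. How far the Hspa1b probe set also reads Hspa1a RNA was not tested, so the Hspa1b values may hold RNA of both genes.

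**Figure D2:**
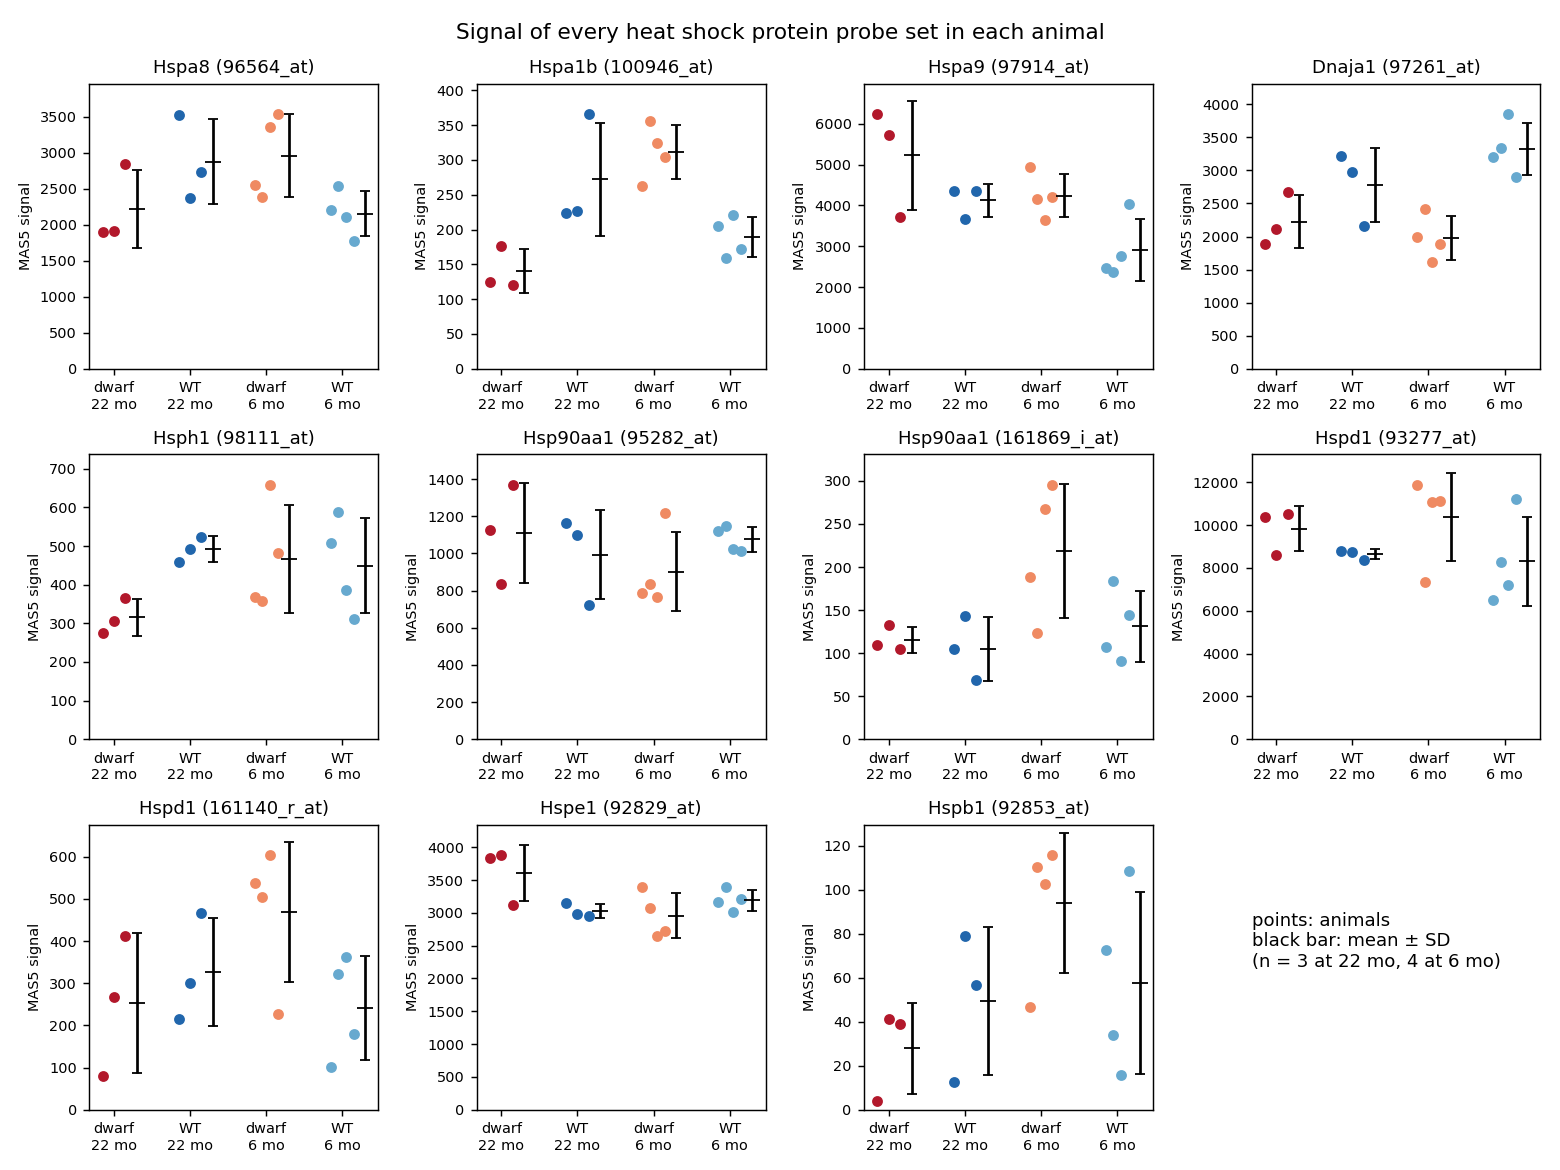
Signal of each of the 11 member probe sets in each mouse. Vertical axes are the deposited signal on a linear scale, points are single livers and black bars are group means with the SD, with dwarf livers left of wild type livers at each age. In the Hspa1b panel the dwarf points lie below the wild type points at 22 months and above them at 6 months, and in the Dnaja1 panel the 6-month dwarf points (1612.9 to 2409.8) lie below the 6-month wild type points (2898.6 to 3850.0).

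Dnaja1, a J-domain co-chaperone that serves Hspa8 and the inducible Hsp70 proteins, was lower in young dwarf livers. At 6 months its signal was 1993.4, 2409.8, 1612.9 and 1881.4 in dwarf livers, against 3199.1, 3332.7, 3850.0 and 2898.6 in wild type livers. Every young dwarf liver lay below every young wild type liver. The difference was -0.76 ± 0.16 on the log2 scale (1.69-fold lower; 95% interval -1.11 to -0.41; limma, adjusted p = 0.00631). The call held under all 27 other settings, with values from -0.95 to -0.64 and adjusted p from 0.00184 to 0.0241. At 22 months the signal was 1886.1, 2113.6 and 2670.0 in dwarf livers, against 3223.5, 2978.6 and 2154.9 in wild type livers. There the groups overlapped through 1 wild type animal, and the difference of -0.32 ± 0.19 did not pass (95% interval -0.72 to 0.08, adjusted p = 0.55). The interaction of 0.44 ± 0.25 did not pass either (adjusted p = 0.456), so the genotype difference was not shown to change with age.

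Hspa1b and Dnaja1 were the 2 member probe sets of 10 that passed at 6 months, 1 in each direction. Over all 7227 probe sets 13.3% passed at 6 months, 6.37% higher and 6.95% lower in dwarf livers. The young groups did not overlap for the same 2 member probe sets, against 9.31% of all probe sets with dwarf livers above and 7.8% with dwarf livers below. At 22 months no member passed, while 2.93% of all probe sets did in limma. Without adjustment, p was under 0.05 there for Hspa1b (0.00278) and Hsph1 (0.0238), and for 12.8% of all probe sets. Those were also the members whose old dwarf livers all lay below the old wild type livers, as they did for 11.5% of all probe sets. With age no member passed in wild type livers (2.49% of all probe sets passed, and 1.45% of all were higher at 22 months), and Hspa9 was the member with an unadjusted p under 0.05 (0.0174), as 17.5% of all probe sets had. The 3 old wild type livers lay above the 4 young ones for Hspa1b, and for 8.12% of all probe sets. In dwarf livers 1 member probe set of 10 passed with age, Hspa1b, against 16.5% of all probe sets (7.94% higher and 8.57% lower at 22 months). In the same comparison the old livers lay wholly below the young ones for Hspa1b, and for 16.5% of all probe sets. An unadjusted p under 0.05 was found there for 5 of the 10 member probe sets (those of Hspa1b, Hspa8, Hsph1 and Hspe1 and the dimmer one of Hsp90aa1), against 32.8% of all. The corresponding counts were 4 of 10 at 6 months, against 29%, and 3 of 10 for the interaction, against 14.4%. The dimmer Hsp90aa1 probe set exceeded the filter on young dwarf livers alone, so its place among the 5 carries no weight. At an adjusted p under 0.05, 2 of 10 thus stood beside 13.3% at 6 months, and 1 of 10 beside 2.19% for the interaction. In the other comparisons the members' shares were below the background. With 10 probe sets, 1 call more or less moves the share widely, so neither count describes the family as a whole.

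**Figure D3:**
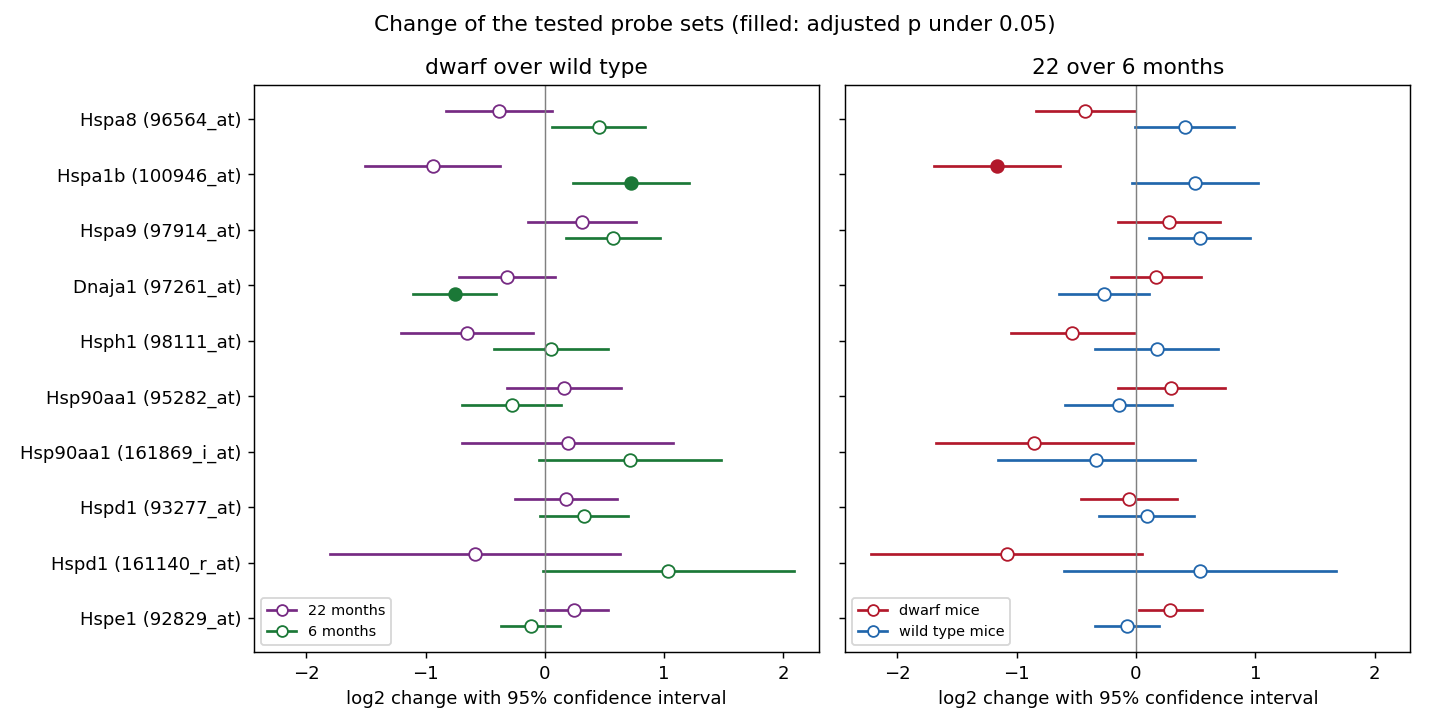
Log2 change of each tested member probe set in each comparison, with 95% intervals from the limma fit. Filled points passed at an adjusted p under 0.05. The Hspa1b point is right of 0 for dwarf against wild type livers at 6 months and left of it at 22 months, and Dnaja1 is left of 0 at 6 months.

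Hspa8 codes for the constitutive cytosolic Hsp70, the most used partner of Dnaja1. Its signal was 1896.3, 1913.8 and 2844.9 in dwarf and 3526.9, 2365.4 and 2738.4 in wild type livers at 22 months. At 6 months it was 2558.8, 2387.7, 3363.9 and 3535.4 in dwarf and 2205.5, 2534.9, 2101.5 and 1777.7 in wild type livers. The groups overlapped at both ages. The dwarf difference was -0.38 ± 0.21 at 22 months (adjusted p = 0.499) and 0.45 ± 0.18 at 6 months (95% interval 0.06 to 0.84, adjusted p = 0.115), with an interaction of -0.83 ± 0.28 (adjusted p = 0.158). None of these passed in limma. Scaling every array to a common median moved the 6-month value to 0.25 (adjusted p = 0.375).

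Hsph1, a large Hsp70-related protein that acts as a nucleotide exchange factor for Hspa8, was measured at 273.8, 304.8 and 366.8 in dwarf and 458.6, 492.4 and 524.5 in wild type livers at 22 months. The old groups did not overlap, but the difference of -0.65 ± 0.26 did not pass (95% interval -1.20 to -0.10, limma adjusted p = 0.27). At 6 months it was measured at 368.1, 359.1, 658.8 and 482.3 in dwarf and 506.8, 589.3, 386.9 and 312.2 in wild type livers. These overlapped widely, with a difference of 0.05 ± 0.23 (95% interval -0.42 to 0.53, adjusted p = 0.894). Neither the value of -0.53 ± 0.24 with age in dwarf livers (adjusted p = 0.141) nor the interaction of -0.71 ± 0.34 (adjusted p = 0.363) passed.

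Hsp90aa1 codes for the inducible form of cytosolic Hsp90. Its brighter probe set read 1125.3, 833.3 and 1369.6 in dwarf and 1161.1, 1097.9 and 719.7 in wild type livers at 22 months, and 789.1, 835.1, 764.7 and 1219.5 in dwarf and 1119.8, 1148.3, 1022.2 and 1012.8 in wild type livers at 6 months. Dwarf animal 89, at 1219.5, lay above every young wild type liver, and the other 3 young dwarf livers lay below them all. The difference was 0.16 ± 0.23 at 22 months (adjusted p = 0.901) and -0.28 ± 0.20 at 6 months (95% interval -0.69 to 0.14, adjusted p = 0.362). The dimmer probe set of Hsp90aa1 exceeded the filter on 3 arrays, all of young dwarf livers. It was thus tested through the group where it is high. Neither its sign at 6 months nor its fall with age in dwarf livers carries weight. It read 104.4 to 132.6 in dwarf and 68.3 to 142.6 in wild type livers at 22 months, and 123.9 to 295.6 in dwarf and 90.7 to 183.5 in wild type livers at 6 months, with overlap at both ages. Neither probe set of this gene passed in any of the 5 comparisons.

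In mitochondria, Hspd1 (the Hsp60 chamber) and Hspe1 (its Hsp10 lid) share a promoter region, and Hspa9 is the Hsp70 that pulls proteins through the import channel. The main Hspd1 probe set read 10383.5, 8606.5 and 10499.7 in dwarf and 8811.2, 8721.7 and 8389.8 in wild type livers at 22 months. At 6 months it read 11887.5, 7333.2, 11078.5 and 11143.3 in dwarf and 6501.4, 8269.4, 7219.0 and 11222.8 in wild type livers. The young groups overlapped through 1 animal each, dwarf animal 85 at 7333.2 and wild type animal 88 at 11222.8. The difference was 0.18 ± 0.20 at 22 months (adjusted p = 0.851) and 0.33 ± 0.17 at 6 months (95% interval -0.04 to 0.70, adjusted p = 0.228).

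Hspe1 read 3833.3, 3878.3 and 3119.0 in dwarf and 3142.5, 2988.5 and 2954.2 in wild type livers at 22 months, and 3391.6, 3070.2, 2645.2 and 2718.4 in dwarf and 3167.2, 3389.7, 3006.4 and 3208.8 in wild type livers at 6 months. It was the steadiest member, with a within-group SD of 0.128 on the log2 scale, lower than that of all but 2.44% of the tested probe sets. Its 95% interval at 6 months, -0.36 to 0.13 around -0.12, leaves out a change as large as that of Dnaja1. With age in dwarf livers its value was 0.29 ± 0.13 (95% interval 0.02 to 0.55, limma adjusted p = 0.124), which passed under 2 other settings, median scaling (0.49, adjusted p = 0.0445) and array weights (0.34, adjusted p = 0.0434).

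Hspa9 read 6233.5, 5723.4 and 3717.9 in dwarf and 4354.3, 3661.5 and 4349.0 in wild type livers at 22 months. At 6 months it read 4942.7, 4169.0, 3643.3 and 4202.9 in dwarf and 2459.9, 2371.2, 2765.7 and 4029.2 in wild type livers. Young wild type animal 88, at 4029.2, was the liver that made the young groups overlap. The 6-month difference of 0.57 ± 0.19 (95% interval 0.18 to 0.96) fell just short of the threshold in limma (adjusted p = 0.0536). Without animal 88 it was 0.74 (adjusted p = 0.0104), and it also passed without old dwarf animal 8 (adjusted p = 0.0308) and under 3 more of 27 settings, quantile normalization, array weights and a stricter filter (adjusted p 0.0153 to 0.0406). Median scaling moved it the other way, to 0.37 (adjusted p = 0.273). With age in wild type livers Hspa9 had a value of 0.53 ± 0.20 (adjusted p = 0.175), which passed without animal 88 (0.70, adjusted p = 0.0333). At 22 months the dwarf difference was 0.31 ± 0.21 (adjusted p = 0.646).

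Hspb1, the small heat shock protein that holds unfolded proteins without using ATP, had signals between 4.2 and 115.8, and 7 of its 14 values were at or below the floor of 54.9. It read 4.2, 41.1 and 38.8 in dwarf and 12.8, 79.0 and 56.8 in wild type livers at 22 months, all 3 dwarf values lying under the floor. At 6 months it read 46.9, 110.6, 102.9 and 115.8 in dwarf and 72.5, 33.8, 15.7 and 108.4 in wild type livers. No array exceeded the filter of 184.8, so no fold is given. The second Hspd1 probe set, with signals of 80.3 to 603.7, had the widest spread of the members within groups (SD 0.838 on the log2 scale, against a median of 0.313 over all tested probe sets). It overlapped between the groups in both genotype comparisons (-0.59 ± 0.57 at 22 months and 1.03 ± 0.50 at 6 months, limma adjusted p = 0.81 and 0.18).

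Over the 8 genes, each taken by its brightest probe set, the median log2 difference of dwarf from wild type livers was -0.08 at 22 months and 0.19 at 6 months, beside 0.01 and 0.10 over all probe sets tested. The median change with age was 0.06 in dwarf and 0.13 in wild type livers, beside -0.09 and -0.02 over all. The direction of the whole array depends on the scaling. With every array set to a common median, the median of all probe sets at 6 months was -0.10, beside 0.10 as deposited, and the share of higher calls there was 18.2%, against 47.8% as deposited. In dwarf livers with age it was 0.12, beside -0.09 as deposited, and the share of higher calls was 79.3%, against 48.1%. Hspa1b, Dnaja1, Hspa8 and Hspa9 kept their signs under every alternative in all 5 comparisons. Values of other members that did not pass changed sign under at least 1 alternative. At 6 months these were Hsph1 (same sign under 20 of 26 settings) and Hspe1. At 22 months they were both Hsp90aa1 probe sets and the dimmer Hspd1 probe set. With age in wild type livers they were Hspe1 and the brighter probe sets of Hsp90aa1 and Hspd1. The main Hspd1 probe set also changed sign with age in dwarf livers and in the interaction. Within groups the members did not move as a block: old dwarf animal 8 was the highest of its group for 6 and the lowest for 4 of the 10 probe sets, and old wild type animal 1 was the highest for 6 and the lowest for 3.

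Partners of these chaperones were counted in lists of the pathway, each gene by its brightest tested probe set. Among Hsp70 partners (18 of 25 tested), 1 fell and none rose in dwarf livers at 6 months, with a list median of 0.06. The one that fell was Dnajc5, the J-domain cysteine string protein of secretory vesicles, which averaged 116.3 ± 45.8 in dwarf and 351 ± 115 in wild type livers (SD, n = 4 each; log2 -1.64 ± 0.30, limma adjusted p = 0.00184). Its call held under all 26 other settings. Of 10 Hsp90 partners, 3 fell and none rose at 6 months: Fkbp4 (-0.53 ± 0.15, adjusted p = 0.0263) and Ppid (-0.53 ± 0.16, adjusted p = 0.044), both peptidyl-prolyl isomerases of steroid receptor complexes, and Nudcd2 (-0.47 ± 0.15, adjusted p = 0.0441). Of 12 genes of the cytosolic chaperonin and prefoldin 1 rose, Tcp1, a subunit of the CCT ring, at 532 ± 93.9 in dwarf and 321 ± 66.5 in wild type livers (0.74 ± 0.19, adjusted p = 0.0174). Of 15 mitochondrial chaperones and proteases 1 rose and 1 fell: Grpel2, an exchange factor of Hspa9 (0.84 ± 0.25, adjusted p = 0.0347), and Clpb, a disaggregase (-0.58 ± 0.17, adjusted p = 0.039). Hsbp1, a small protein that binds heat shock factor 1, was the gene tested of 7 heat shock factors and binders and fell (-0.66 ± 0.21, adjusted p = 0.0458). Neither of the 2 small heat shock proteins tested, Cryab and Hspb8, passed.

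In these 6 lists 8 of 58 tested genes passed at 6 months, beside 13.3% of all probe sets. The call of Dnajc5 held under every alternative, and the other 7 were each lost under at least 5. Tcp1 lost its call under median scaling, with the compared groups alone, and without young dwarf animal 85 or 89 or young wild type animal 82. Fkbp4 lost its call under quantile normalization, with the compared groups alone, and without young dwarf animal 85 or 89 or young wild type animal 86 or 88. Ppid, Nudcd2, Grpel2, Clpb and Hsbp1 lost their calls when any of 5 to 10 of the 14 arrays was left out. With the 3′ to 5′ ratio as a covariate 4 of the 8 calls held. At 22 months none of the 58 genes passed in limma, beside 2.93% of all probe sets. None passed for the interaction, beside 2.19% of all probe sets.

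The endoplasmic reticulum has its own set of chaperones. Of 12 tested endoplasmic reticulum chaperones 7 fell and none rose in dwarf livers at 6 months, beside 6.95% of all probe sets lower, with a list median of -0.70 beside 0.10 over all probe sets. None of the 12 passed at 22 months, beside 2.93% of all probe sets. The list median there was -0.33, beside 0.01 over all probe sets. None of the 12 passed for the interaction either, beside 2.19% of all probe sets. Hspa5 (BiP), the Hsp70 of that compartment, averaged 4096 ± 594 in dwarf and 5707 ± 544 in wild type livers at 22 months (SD, n = 3 each; -0.48 ± 0.17, limma adjusted p = 0.165), and 3097 ± 325 in dwarf and 4779.9 ± 863 in wild type livers at 6 months (SD, n = 4 each; -0.61 ± 0.14, adjusted p = 0.0104). The calls of Hspa5, Manf, Pdia3 and Pdia6 at 6 months held under every alternative, and the other 3 of the 7 were lost under 4 to 12 of the settings. Whether this list differs from the cytosolic and mitochondrial members was not tested.

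With age in dwarf livers 16 of the 58 partners passed, beside 16.5% of all probe sets, and the 3′ to 5′ ratio and the 18S signal moved with age there. Of Hsp70 partners 4 rose and 1 fell. Among those that rose were Dnajc5 (374 ± 57.3 at 22 months, against 116.3 ± 45.8 at 6 months; 1.77 ± 0.32, limma adjusted p = 0.00307) and Bag3, a co-chaperone that leads Hsp70 clients to autophagy (546 ± 191 against 242 ± 59.2; 1.15 ± 0.30, adjusted p = 0.0172). The one that fell was Bag2 (log2 -0.64, limma adjusted p = 0.00964). Of Hsp90 partners 3 rose and 1 fell. Fkbp5, an isomerase of glucocorticoid receptor complexes, rose to 869.8 ± 213 at 22 months, against 320.2 ± 94.1 at 6 months (1.46 ± 0.32, adjusted p = 0.0081), and Sugt1, a client adaptor, fell (-1.31 ± 0.25, adjusted p = 0.00357). Of CCT and prefoldin genes 2 rose and 1 fell, with Cct8 at 0.82 ± 0.20 (adjusted p = 0.0131) and Tcp1 at -0.93 ± 0.21 (adjusted p = 0.00849). Of mitochondrial genes 2 rose and 1 fell, with Grpel1 at 0.75 ± 0.16 (adjusted p = 0.00693) and Htra2 at -0.57 (adjusted p = 0.0226). Hsbp1 rose (0.73 ± 0.22, adjusted p = 0.0354). Of the 12 endoplasmic reticulum chaperones 4 rose and none fell, beside 7.94% of all probe sets higher and 8.57% lower. None of the 16 calls in the 6 lists, and none of the 4 of the endoplasmic reticulum list, held with the 3′ to 5′ ratio as a covariate, and 1 of the 16 and none of the 4 held with the 18S signal as one. The values themselves moved unequally with the 3′ to 5′ covariate: Fkbp5 was at 1.20 (adjusted p = 0.201), Cct8 at 0.78 (0.19) and Tcp1 at -0.90 (0.157), while Bag3 was at 0.53 (0.473) and Sugt1 at -0.60 (0.242). With age in wild type livers 1 of 58 genes passed in limma, beside 2.49% of all probe sets. It was Cct7, another CCT subunit (0.73 ± 0.16, adjusted p = 0.026). Its call ended under median scaling, with the compared groups alone, without the intensity trend, with either covariate and without young wild type animal 84 or 86 or old wild type animal 1 or 2.

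**Figure D4:**
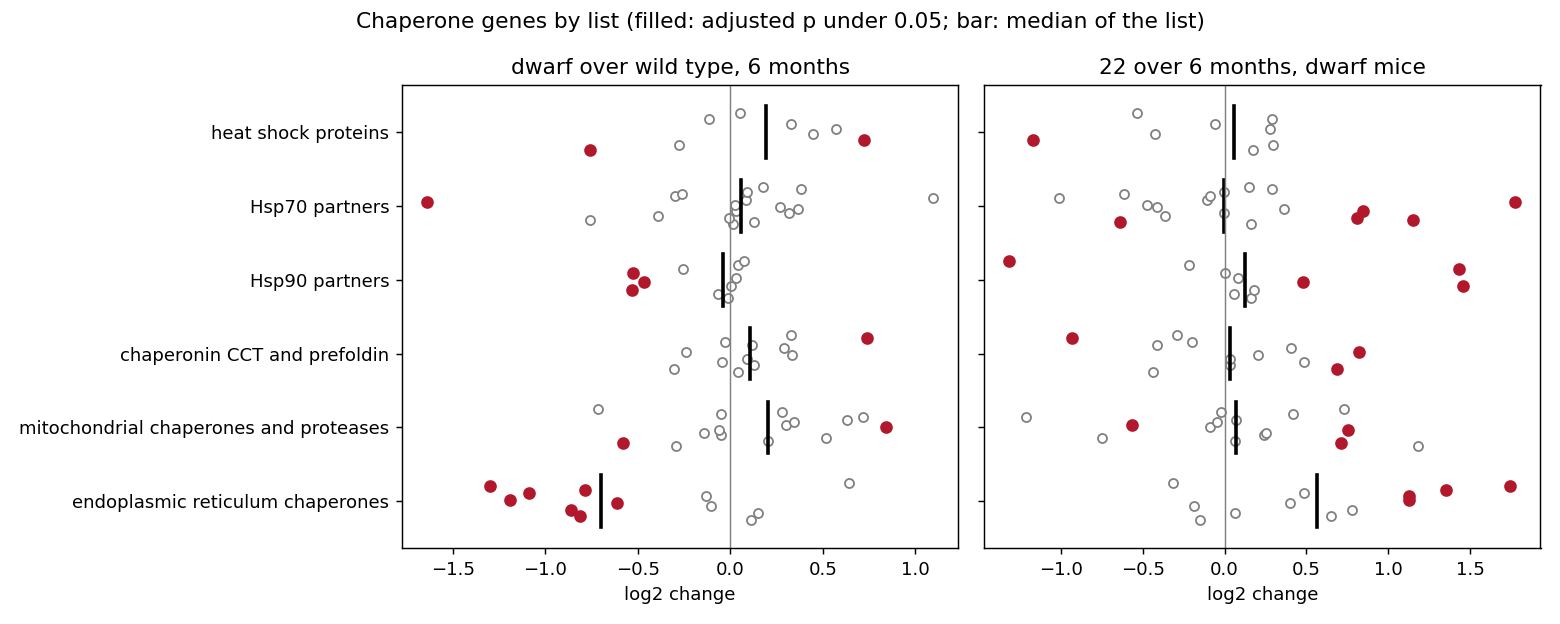
Log2 change of every tested gene of the family and of the 5 pathway lists with over 2 tested genes, for dwarf against wild type livers at 6 months and for 22 against 6 months in dwarf livers. Points are genes, filled where the gene passed at an adjusted p under 0.05, and the black vertical bars are list medians. At 6 months the median of the endoplasmic reticulum list is at -0.70, and those of the members and of the Hsp70 partners are at 0.19 and 0.06.

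For Hspa8, Hsp90aa1 and Hspd1 the genes with the most similar pattern were sought among 5472 genes, by the mean absolute difference of log2 signals, each centred on its own mean, over the 14 arrays. For Hspa8 the nearest were Arhgdib (0.163), Matr3 (0.163), Stx12 (0.164), Actn1 (0.167) and Slc38a2 (0.173), against a median of 0.384 over genes. For Hsp90aa1 they were Pno1 (0.122), Abce1 (0.135), Usp14 (0.149), Mocs2 (0.159) and Gps1 (0.167), and for Hspd1 they were Eef1a1 (0.127), Atp13a2 (0.145), Lor (0.146), Tpt1 (0.148) and Mprip (0.153). No member of the family is among these 15 genes. All arrays and their scaling are shared by every gene, and the measure favours genes that vary little.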

How the data were processed

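Biotin-labelled liver RNA of 14 mice was measured on Affymetrix mouse arrays, 1 mouse per array. The deposited values are signal intensities on a linear scale, made by the authors with MAS5, per the submitters' processing notes; version, scaling target and detection calls are not given in the sources used here, and the trimmed means (2% at each end) show that the arrays had been scaled. The array annotation gave 1 gene symbol for 10855 probe sets, several for 396 and none for 1237, and 10839 of the 10855 matched the RefSeq gene table.

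Groups came from the sample titles. Values under the pooled 25th percentile (54.9) were set to it before log2. Testing was limited to probe sets with 3 or more arrays over the pooled median of 184.8; 66 controls were left out and 7227 probe sets remained. One mean per group was fitted to all 14 arrays in limma 3.58.1 (R 4.3.3; lmFit, eBayes with an intensity trend), with 5 contrasts, two-sided tests, and Benjamini-Hochberg adjustment over all probe sets of a contrast; an adjusted p under 0.05 passed. The pipeline was run on simulated data with independent noise for each probe set and added fold changes. That simulation held no array-wide shift or RNA quality difference, so it does not cover those. The p-values set group differences against the spread between livers within groups. Nothing says how the animals were housed or processed, so differences in handling between groups were not tested. The number of arrays limits the precision.

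Every member probe set is described. Of each pathway list at most the 4 passing genes with the smallest p per contrast are named, and the brightest probe set stands for a gene with several. Members, lists, the naming rule and the alternatives were chosen with earlier results of these data known. Alternatives covered scaling (quantile, median), the floor (other floors, a pseudocount of 50), other filters (none, 75th percentile), fits of the compared groups alone, other variance models, array weights, the 3′ to 5′ ratio or the 18S signal as a covariate, and leaving out each array. Promoter windows were searched with Python 3.11.15, and figures were drawn with matplotlib 3.10.9. Hsp90ab1, with no probe set of its own, was not analysed here.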

Additional observations from a re-analysis of the deposited data

Results flagged for a closer look

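Among 22 groups of 4 livers with a member's values, 1 held an animal far from the others: the brighter Hsp90aa1 probe set read 1219.5 in young dwarf animal 89, against 764.7 to 835.1 in the other 3. The gap was past the critical value of Dixon's test at the 95% level, which chance alone passes in about 1 in 20 groups.

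The genotype difference of Hspa1b had opposite signs at the 2 ages. The interaction of genotype and age passed in limma (log2 -1.66 ± 0.35, adjusted p = 0.024). This call ended with the 3′ to 5′ covariate (adjusted p = 0.074). It also ended without old dwarf animal 3 or 8 or old wild type animal 24. Signals were lower in all 3 old dwarf livers than in any old wild type liver, as for 11.5% of all probe sets. They were higher in all 4 young dwarf livers than in any young wild type liver, as for 9.31% of all.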

How the results depend on the processing

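Of 1320 single values of the member probe sets under the alternatives, 1282 kept their side of the threshold, 28 lost it, 10 gained it and none of those that had passed changed sign. Counts of member probe sets that passed moved as follows, with no cause tested except where fewer probe sets were tested. At 6 months 2 passed as reported, and 1 passed under median scaling, a floor at a signal of 1 or at the 10th percentile, no filter, the compared groups alone, robust eBayes, the 3′ to 5′ covariate and the 18S covariate. The count stayed at 2 under quantile normalization, array weights and the filter at the 75th percentile. There, however, Dnaja1 and Hspa9 passed, and Hspa1b did not pass or was not tested. At 22 months the count of 0 became 1 without the intensity trend and with array weights. With age in dwarf livers the count of 1 became 2 under median scaling and array weights, and 0 with either covariate and under the filter at the 75th percentile, which leaves Hspa1b untested. For the interaction the count of 1 became 0 under that filter and with the 3′ to 5′ covariate.

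Over all probe sets, the count at 6 months was 962, and 630 with the compared groups alone. At 22 months it was 212, and 442 with array weights. With age in wild type livers it was 180, and 106 under median scaling, 102 with no filter, 76 with the compared groups alone, 90 without the trend, 472 with array weights and 9 with the 18S covariate. With age in dwarf livers it was 1193, and 51 with the 3′ to 5′ covariate and 211 with the 18S covariate. For the interaction it was 158, and 69 with no filter, 64 without the trend and 57 with the 3′ to 5′ covariate; 89.7% of its calls were higher under median scaling, against 70.3% as deposited.

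Leaving out each array in turn gave 711 to 1098 calls at 6 months (members 1 to 2) and 127 to 241 at 22 months (members 0 throughout; 127 without old dwarf animal 3). With age in wild type livers it gave 60 to 457 (members 0 to 1): 457 without young animal 88, and 60, 61, 65, 68 and 69 without animals 1, 86, 84, 24 and 2. With age in dwarf livers it gave 521 to 1451 (member 1 throughout): 521, 662, 732 and 756 without animals 3, 4, 8 and 87. For the interaction it gave 48 to 169 (members 0 to 1): 48, 69 and 88 without old dwarf animals 3, 8 and 4, 57 and 85 without old wild type animals 24 and 1, and 101 and 103 without young animals 82 and 87. No paired analysis was possible because the animal numbers of the labels are not shared between groups. Hspb1 lies near the floor, where the signal orders nothing.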
